A study of Mus musculus with 6 samples.

Results

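The simple epithelial keratins measured here were Krt7, Krt8, Krt18, Krt19, Krt20 and Krt23, 6 of the 32285 genes in a read-count table of mouse kidney, chosen by name and matched by Ensembl ID to GENCODE M21 symbols. The high-load group held 3 whole kidneys with 75%, 75% and 80% mutated copies of TrnE, which encodes the mitochondrial tRNA for glutamate. The control group held 3 whole kidneys with 10%, 5% and 15% mutated copies, so the controls carried the same mutation at a low level. These loads come from the labels, which do not name the tissue they were measured in. All 6 kidneys came from female mice of 100 weeks, of a strain the labels do not name. The kidneys are called high-load 1 to 3 and control 1 to 3. All 6 keratins passed the filter on low counts and were among the 15955 genes tested.

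Keratins are the intermediate filament proteins of epithelial cells. A keratin filament is built from pairs of a type II chain and a type I chain, and a chain without a partner is degraded. Krt7 and Krt8 encode type II chains, and Krt18, Krt19, Krt20 and Krt23 encode type I chains. Krt8 with Krt18 is the basic pair of simple, single-layered epithelia. In the kidney, simple keratins are best known from the collecting duct, and from tubule cells after injury. The urothelium, the stratified lining of the renal pelvis, carries simple keratins too, with Krt20 in its surface umbrella cells. Umbrella cells are also the cells that make uroplakins, the membrane plaque proteins that include Upk1b and Upk3a, while the urothelium's basal cells carry Krt5, Krt14 and Krt15.

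The genes lie in the keratin clusters of mm10. Krt7 (ENSMUSG00000023039) spans chr15:101411043-101430313 on the plus strand. Krt8 (ENSMUSG00000049382) spans chr15:101996698-102004482 on the minus strand, and Krt18 (ENSMUSG00000023043) spans chr15:102028180-102032027 on the plus strand. The starts of Krt8 and Krt18 face away from each other with 23.7 kb between them, although most type I keratin genes, Krt20, Krt23 and Krt19 among them, lie on chromosome 11. Krt20 (ENSMUSG00000035775) spans chr11:99428403-99438150, Krt23 (ENSMUSG00000006777) chr11:99477974-99493137 and Krt19 (ENSMUSG00000020911) chr11:100140810-100148665, each on the minus strand. Exons of Krt7 overlap those of Gm671 and exons of Krt8 those of Gm36026, on the opposite strand in each case. Gm671 had 30 to 43 counts and Gm36026 0 to 2 counts per kidney, against at least 1453 counts for Krt7 and 1857 for Krt8. The strand setting of the counting is not known here, so reads of such pairs cannot be told apart.

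The RefSeq table of promoters (GRCm38.p6) held 5 of the 6 keratins; Krt19 was not matched. The 250 bases before the annotated start are shown for Krt8 and Krt18, a pair whose ratio did not overlap between the groups, for Krt7, which kept step with Krt8, and for Krt20, which is set beside the uroplakins. Capitals mark letters that match a TATA box (TATAAA), a GC box (GGGCGG), an AP-1 element (TGANTCA) or an ATF4 composite element (TGATGNAAT), each searched on both strands, with no overlap between matches. The windows are chr15:102004343-102004592, minus strand for Krt8, chr15:102027966-102028215, plus strand for Krt18, chr15:101412153-101412402, plus strand for Krt7 and chr11:99438154-99438403, minus strand for Krt20. The RefSeq starts of Krt7, Krt8, Krt18 and Krt23 lie inside the GENCODE genes. The Krt7 window therefore lies wholly within its gene, and the windows of Krt8, Krt18 and Krt23 lie partly within theirs.
Krt8: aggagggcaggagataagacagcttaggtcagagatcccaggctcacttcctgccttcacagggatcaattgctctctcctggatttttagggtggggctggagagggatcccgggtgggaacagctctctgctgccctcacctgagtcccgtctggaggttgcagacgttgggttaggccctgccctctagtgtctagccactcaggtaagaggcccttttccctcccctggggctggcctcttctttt
Krt18: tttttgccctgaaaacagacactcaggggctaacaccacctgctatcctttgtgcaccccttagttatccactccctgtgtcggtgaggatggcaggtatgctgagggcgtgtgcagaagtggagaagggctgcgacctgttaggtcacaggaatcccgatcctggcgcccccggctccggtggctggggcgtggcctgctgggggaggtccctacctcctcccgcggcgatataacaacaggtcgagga
Krt7: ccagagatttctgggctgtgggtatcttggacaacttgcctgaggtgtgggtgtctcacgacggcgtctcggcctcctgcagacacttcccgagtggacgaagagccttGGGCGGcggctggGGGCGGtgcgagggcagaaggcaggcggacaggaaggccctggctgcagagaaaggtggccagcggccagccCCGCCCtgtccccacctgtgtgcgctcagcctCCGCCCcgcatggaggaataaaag
Krt20: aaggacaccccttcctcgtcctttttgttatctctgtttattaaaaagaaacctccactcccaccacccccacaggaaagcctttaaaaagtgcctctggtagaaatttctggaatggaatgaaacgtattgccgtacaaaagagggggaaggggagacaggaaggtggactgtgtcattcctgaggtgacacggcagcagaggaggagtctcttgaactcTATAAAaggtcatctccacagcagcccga
The Krt7 window held 4 GC boxes, at 141 to 136, 128 to 123, 56 to 51 and 24 to 19 bases before the start. The Krt20 window held a TATA box at 29 to 24 bases before the start. No match to these 4 motifs was present in the windows of Krt8, Krt18 or Krt23. Among 32817 promoter windows of the same length, 32.7% held a GC box, 12.4% a TATA box, 6.75% an AP-1 element and 0.817% an ATF4 composite element.

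Total counts per library ranged from 17449270 to 18865997. High-load 1 stood apart from the other 5 kidneys before any keratin is considered. Its TMM scaling factor was 1.14, against 0.944 to 0.997 elsewhere. Upk1b had 1264 counts in high-load 1, 3 in high-load 2 and 1 in high-load 3, against 190, 91 and 41 in controls 1 to 3. Upk3a had 686, 4 and 0 counts in high-load 1 to 3, against 131, 54 and 78 in controls 1 to 3. The summed level of 10 proximal tubule markers was 2830 CPM in high-load 1, 17100 in high-load 2 and 8540 in high-load 3, against 13700 to 20000 CPM in the controls. Without Kap, which alone gave 150 to 9590 CPM in high-load kidneys and 4410 to 10600 CPM in controls, the sum was 2680, 7540 and 5590 CPM in high-load 1 to 3, against 8610 to 11000 CPM in the controls, so all 3 high-load kidneys lay below all controls. All 10 had a log2 fold change below 0 (median -0.85, and -0.54 without high-load 1), and 0 passed an adjusted p of 0.05. Keratin results are therefore given with and without high-load 1. Levels are given as CPM, the counts scaled to a common library size with TMM factors.

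Krt7, Krt8 and Krt18 mRNA was higher than in all controls in each of the 3 high-load kidneys, and Krt19 was higher in 2 of them. None of the 6 keratins passed an adjusted p of 0.05 in edgeR's quasi-likelihood test, which called 0.0188% of all genes tested as higher and 0% as lower. At an unadjusted p under 0.05, 4 of the 6 were higher (Krt7, Krt8, Krt18 and Krt19) and 0 were lower, beside 14% of all genes tested that were higher and 10.2% that were lower. Without control 3 the count was 2 (Krt7 and Krt18), and the share of all genes in that fit was not computed. DESeq2, as another tool, called the same 4 higher and 0 lower at its adjusted p of 0.05, beside 6.67% of its genes higher and 3.88% lower. Without high-load 1, edgeR had the same 4 higher at an unadjusted p under 0.05, beside 10.6% of all genes, while 0 keratins and 0% of all genes passed an adjusted p of 0.05. The median log2 fold change of the 6 keratins was 1.37, beside 0.0068 over all genes tested. Whole kidney RNA was measured, so fewer cells of a type and less RNA per cell cannot be told apart, and the same holds for more.

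**Figure D1:**
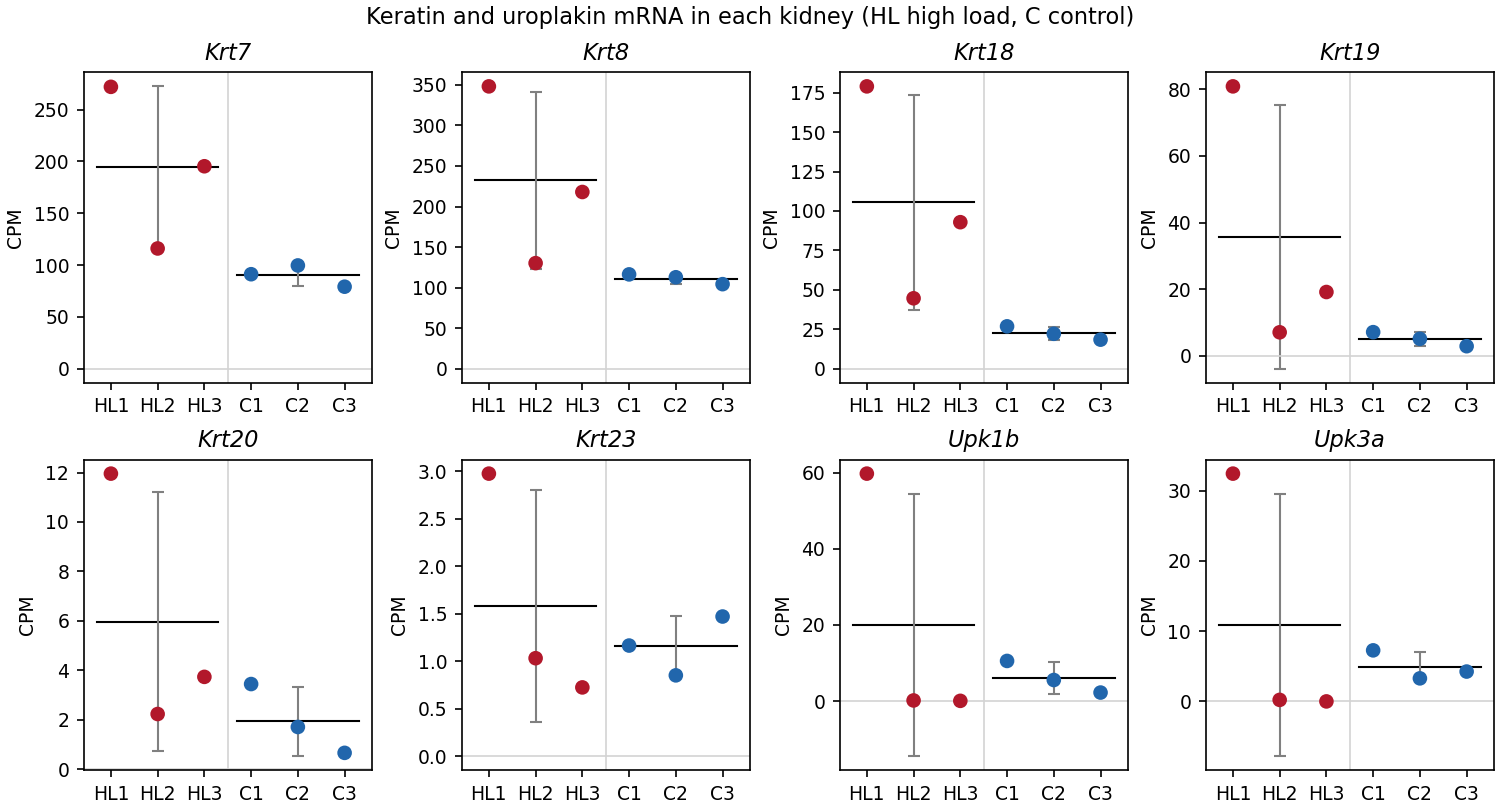
CPM (TMM scaled; linear axes that differ between panels) of the 6 keratins and of the uroplakins Upk1b and Upk3a in each kidney, with high-load kidneys (HL1 to HL3) in red and controls (C1 to C3) in blue; black lines are group means and grey bars SD (n = 3 each). Krt18 lies at 44.7 CPM or more in every high-load kidney and at 26.9 CPM or less in every control, whereas Upk1b and Upk3a are near 0 in HL2 and HL3.

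Krt18, the type I chain of the basic pair, was at 179, 44.7 and 92.9 CPM in high-load 1 to 3, against 26.9, 22.2 and 18.5 CPM in controls 1 to 3. The groups did not overlap, and high-load 2, the lowest of its group, stood at 1.66 times the highest control. Mean levels were 106 ± 68.0 CPM in high-load kidneys and 22.5 ± 4.23 CPM in controls (SD, n = 3 each), a 4.69-fold difference (log2 fold change 2.23, SE 0.48, edgeR adjusted p 0.0983). Krt18 was the only one of the 6 keratins under an adjusted p of 0.1, a threshold that 2.59% of all genes passed as higher. Without high-load 1, the log2 fold change was 1.61 (SE 0.34, edgeR adjusted p 0.140), a smaller value by more than 1.5 times on the fold scale.

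Krt8, its type II partner, was at 348, 130.2 and 218 CPM in high-load 1 to 3, against 116, 113 and 104 CPM in controls 1 to 3. All 3 high-load kidneys lay above all controls, with high-load 2 only 1.12 times the highest control. Group means were 232 ± 109.6 CPM in high-load kidneys and 111 ± 6.19 CPM in controls (SD, n = 3 each), a log2 fold change of 1.06 (SE 0.33, edgeR adjusted p 0.140). It was 0.65 (SE 0.21, adjusted p 0.208) without high-load 1. The controls varied little, with a coefficient of variation of 5.57%, against 47.2% among high-load kidneys.

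Krt7, the type II chain of ducts and urothelium, was at 272, 116 and 195 CPM in high-load 1 to 3, against 91.2, 99.7 and 79.2 CPM in controls 1 to 3. These groups did not overlap either. Means were 194 ± 77.9 CPM in high-load kidneys and 90.0 ± 10.3 CPM in controls (SD, n = 3 each), a log2 fold change of 1.11 (SE 0.30, edgeR adjusted p 0.119). Without high-load 1 it was 0.79 (SE 0.23, adjusted p 0.179). Together, 3 of the 6 keratins (Krt7, Krt8 and Krt18) had every high-load kidney above every control, as did 17.1% of all genes tested.

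Krt19, a type I chain of ducts and urothelium whose protein lacks most of the tail found in other keratins, was at 80.9, 7.06 and 19.1 CPM in high-load 1 to 3, against 7.10, 5.10 and 2.89 CPM in controls 1 to 3. High-load 2 lay just under control 1, so the groups overlapped. High-load 1 was 16.1 times the control mean and high-load 3 was 3.81 times. The means of 35.7 ± 39.6 CPM in high-load kidneys and 5.03 ± 2.11 CPM in controls (SD, n = 3 each) gave a log2 fold change of 2.83 (SE 0.89, edgeR adjusted p 0.142), the highest of the 6. Without high-load 1 the log2 fold change was 1.38 (SE 0.53, adjusted p 0.252), below that of Krt18.

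Krt20, the type I keratin of umbrella cells, was at 12.0, 2.23 and 3.73 CPM in high-load 1 to 3, against 3.44, 1.70 and 0.654 CPM in controls 1 to 3. High-load 1 stood clear of the controls, high-load 3 was 1.08 times the highest control, and high-load 2 lay among the controls. The log2 fold change was 1.63 (SE 0.79, edgeR adjusted p 0.254), and 0.63 (SE 0.64, adjusted p 0.645) without high-load 1. Krt23, a type I chain known in mouse liver as a stress-induced keratin, was at 2.98, 1.03 and 0.724 CPM in high-load 1 to 3, against 1.16, 0.851 and 1.47 CPM in controls 1 to 3. Its log2 fold change of 0.45 (SE 0.56, edgeR adjusted p 0.654) became -0.40 (SE 0.39, adjusted p 0.617) without high-load 1, and its counts were low, at 13 to 63 per kidney.

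**Figure D2:**
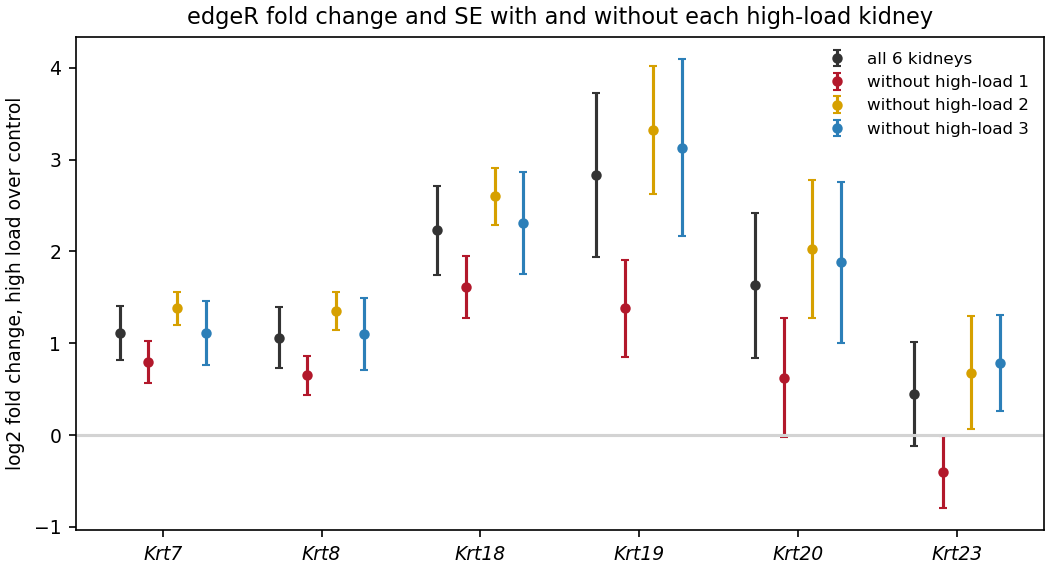
edgeR log2 fold change (high load over control) of each keratin with its SE, for all 6 kidneys and with each high-load kidney left out in turn. Values for Krt7, Krt8, Krt18 and Krt19 stay above 0 in every fit shown, from 0.65 for Krt8 without high-load 1 to 3.32 for Krt19 without high-load 2, and Krt23 is at -0.40 without high-load 1.

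Scaled to transcript length, Krt8 was the most abundant of the 6 keratins in every kidney, at 178, 66.5 and 111 CPM per kb in high-load 1 to 3 and 59.4, 57.6 and 53.3 CPM per kb in controls 1 to 3. In each high-load kidney Krt18 came next and Krt7 after it, with Krt18 at 124.6, 31.1 and 64.7 CPM per kb and Krt7 at 66.4, 28.3 and 47.7 CPM per kb. In each control this order was the other way round, with Krt7 at 22.3, 24.3 and 19.3 CPM per kb and Krt18 at 18.7, 15.4 and 12.9 CPM per kb. This switch depended on the length used, here 4094 bases for the principal Krt7 transcript. With all exons of Krt7, 7049 bases, Krt7 was below Krt18 in every kidney, at 0.31 to 0.529 times in high-load kidneys and 0.691 to 0.916 times in controls. With no length scaling it was above Krt18 in every kidney, at 1.52 to 2.60 times in high-load kidneys and 3.39 to 4.49 times in controls. A length changes the ratio of every kidney by the same factor, so whether the groups overlap cannot depend on it. The groups did not overlap in this ratio. Krt19 followed these 3 in every kidney, at 51.3, 4.48 and 12.2 CPM per kb in high-load 1 to 3 and 4.51, 3.24 and 1.83 CPM per kb in controls 1 to 3. Krt20 and Krt23 stayed below 2 CPM per kb in every kidney other than high-load 1, where Krt20 was at 6.21 CPM per kb, and their order differed between control kidneys. The sum over the 6 keratins was 428, 132 and 238 CPM per kb in high-load 1 to 3, against 107, 102 and 88.6 CPM per kb in controls 1 to 3.

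The ratio of Krt8 to its type I partner Krt18 was lower in every high-load kidney than in every control, while the ratio of Krt7 to Krt8, both type II, overlapped. Krt8 mRNA exceeded Krt18 mRNA 1.43, 2.14 and 1.72 times per length in high-load 1 to 3, against 3.17, 3.73 and 4.15 times in controls 1 to 3. The groups did not overlap, and the mean log2 ratio was 0.80 ± 0.29 in high-load kidneys and 1.87 ± 0.19 in controls (SD, n = 3 each; difference -1.07, exact two-sided permutation p 0.1, the smallest that 3 against 3 allows). The difference was -0.93 without high-load 1. Over all 6 genes the type II to type I ratio was 1.33, 2.54 and 2.01 in high-load 1 to 3, against 3.17, 4.08 and 4.55 in controls 1 to 3. Krt7 over Krt8 was 0.373, 0.426 and 0.429 in high-load 1 to 3, against 0.375, 0.422 and 0.363 in controls 1 to 3, a mean log2 difference of 0.083 with overlapping groups (exact two-sided permutation p 0.3, n = 3 each). Krt18 supplied 29.1%, 23.5% and 27.1% of the summed per-length level in high-load 1 to 3, against 17.4%, 15.1% and 14.5% in controls 1 to 3. These ratios and shares come from the same counts and are not independent of each other.

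**Figure D3:**
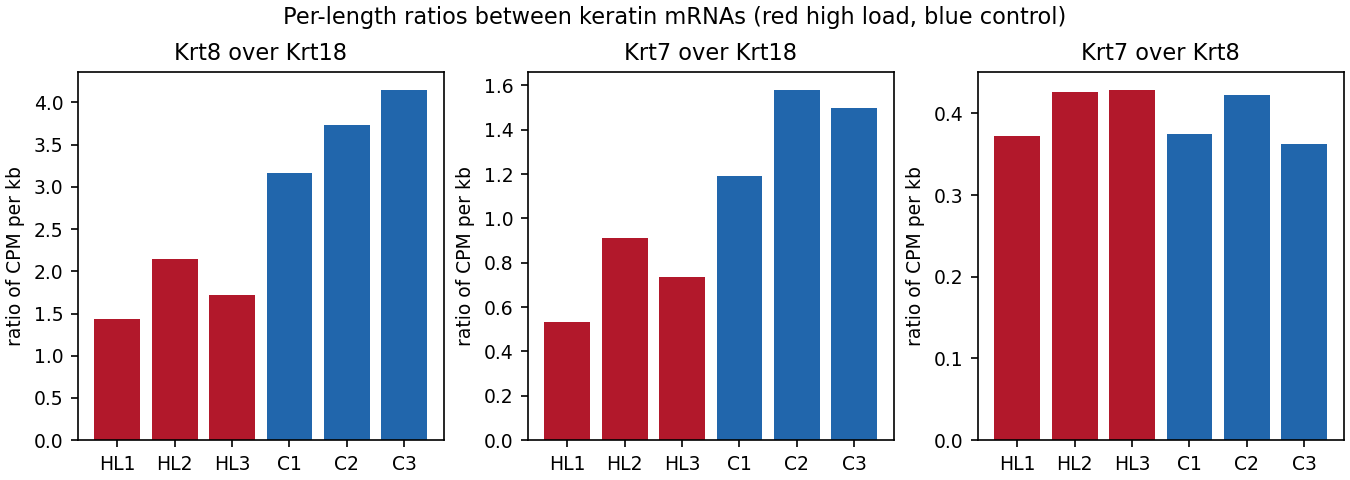
Ratios of length-scaled CPM between keratin mRNAs in each kidney, high-load kidneys (HL1 to HL3, red) left of controls (C1 to C3, blue), with bars starting at 0. Krt8 over Krt18 is 2.14 or less in every high-load kidney and 3.17 or more in every control, Krt7 over Krt18 is 0.911 or less in every high-load kidney and 1.19 or more in every control with the principal transcript lengths used here (which side of 1 it lies on depends on the length chosen for Krt7), and Krt7 over Krt8 stays between 0.363 and 0.429.

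None of the 6 keratins fell as far as Upk1b and Upk3a in high-load 2 and 3. Krt20 was at 1.15 and 1.93 times its control mean there, and Krt23 at 0.888 and 0.623 times. Upk1b was at 0.0267 and 0.00912 times its control mean, and Upk3a at 0.044 and 0 times. In high-load 2 and 3, where Upk1b had 3 and 1 counts and Upk3a 4 and 0 counts, Krt18 had 823 and 1669 counts, Krt8 2399 and 3915, Krt7 2137 and 3508, and Krt19 130 and 344. Both uroplakins were lower in these kidneys than in every control, whereas Krt7, Krt8 and Krt18 were higher in these kidneys than in every control. Per length, Krt18 stood at 3.95 times Upk1b in high-load 1 (exact 95% interval 3.70 to 4.21, counting error only), at 362 times in high-load 2 (123 to 1760) and at 2200 times in high-load 3 (394 to 86900), against 3.36, 5.29 and 10.9 times in controls 1 to 3.

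Krt20 was the member whose ratio to Upk1b varied least among the controls. Per length, Krt20 was 0.197 times Upk1b in high-load 1 (exact 95% interval 0.171 to 0.225), 13.4 times in high-load 2 (4.29 to 67.8) and 65.9 times in high-load 3 (11.4 to 2640), with 41 and 67 Krt20 counts beside 3 and 1 of Upk1b in high-load 2 and 3. It was 0.321 times Upk1b in control 1 (0.237 to 0.429), 0.302 times in control 2 (0.191 to 0.466) and 0.288 times in control 3 (0.138 to 0.558), while Upk1b itself ranged from 41 to 190 counts there. Against Upk3a the control ratios of Krt20 were less even, at 0.268, 0.294 and 0.0873 in controls 1 to 3. Krt8, Krt18 and Krt19 had the control order of Upk1b too, highest in control 1 and lowest in control 3, and the ratio of Krt19 to Upk1b was 0.810, 1.11 and 1.55 there.

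**Figure D4:**
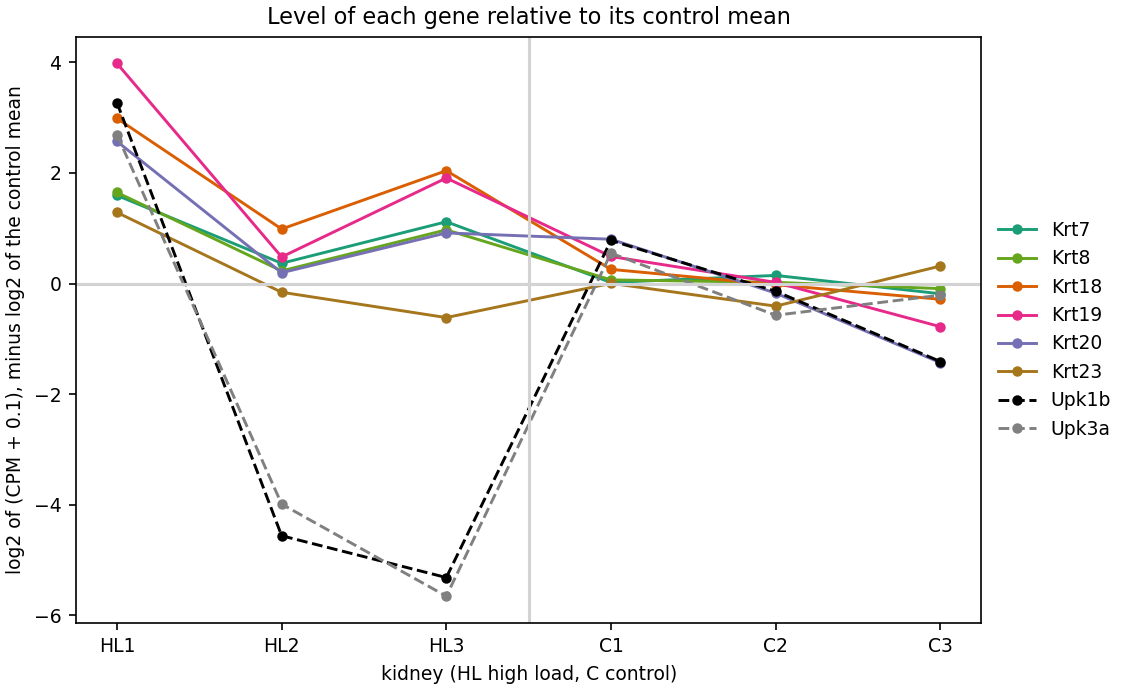
Level of each keratin (solid lines) and of Upk1b and Upk3a (dashed lines) in each kidney, as log2 of CPM plus 0.1 minus log2 of the control mean plus 0.1; lines only join the points of a gene, and the kidneys of a group have no order. All 8 genes are above 0 in HL1, the uroplakins are the only genes below -1 in HL2 and HL3, and Krt20 overlies Upk1b in the 3 controls.

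The likeness of whole profiles was measured as the root mean square difference between log2 levels over the 6 kidneys, each gene centred on its own mean. A gene with no variation would lie 2.84 from the mean profile of Upk1b and Upk3a. Krt23 was at 2.40, Krt20 at 2.68, Krt8 at 2.78, Krt19 at 2.81, Krt7 at 2.86 and Krt18 at 3.01. Over all 6 kidneys, Krt7 and Krt18 were thus farther from the uroplakins than such a gene, Krt7 only narrowly. Of all genes tested, 0.871% were at least as near as Krt23, 5.67% as Krt20, 18.5% as Krt8, 27.1% as Krt19, 49.4% as Krt7 and 86.7% as Krt18. Krt23 was below every control in high-load 3 only narrowly, with 13 counts against 14 in control 2, and it lay among the controls in high-load 2. Upk1b and Upk3a had at most 4 counts in both of these kidneys. Without high-load 1, Krt23 was at 2.19, Krt8 at 2.67, Krt7 at 2.74, Krt20 at 2.75, Krt19 at 3.02 and Krt18 at 3.12. There all members but Krt23 were farther from the uroplakins than a gene with no variation. The distances also depended on high-load 3: without it Krt19 was at 1.81, and Krt7 and Krt18 were each at 2.07. The distance of a gene with no variation falls as well there. Krt7 and Krt18 were then nearer to the uroplakins than such a gene, so their order against it depended on high-load 3. By contrast the basal urothelial keratins, which are no members of the simple group, lay close to the uroplakins, with Krt5 at 0.47, Krt15 at 0.52 and Krt14 at 0.74. Krt5 had 935, 0 and 0 counts in high-load 1 to 3 against 102, 35 and 38 in controls 1 to 3, and Krt14 and Krt15 had at most 1 count in high-load 2 and 3.

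Among themselves, Krt7 and Krt8 had the most alike profiles of any pair of members, with a root mean square difference of 0.10 on the log2 scale. Krt18 and Krt19 were at 0.51 from each other, and Krt18 at 0.56 from Krt7 and 0.57 from Krt8. Of all tested genes with a mean of at least 1 CPM, those most like Krt7 over the 6 kidneys were Myof, a membrane repair protein, Enkur, Fam129a and Itgam, an integrin chain of myeloid cells, at 0.065 to 0.091. Those most like Krt8 were Itgam, Enkur, Mast1, the cell cycle gene Cks1b and the surface protein Cd24a, at 0.056 to 0.12. Those most like Krt18 were Serpina3n, a serine protease inhibitor, Cd276, Neurl1a, the tight junction gene Cldn4 and Rab15, at 0.18 to 0.25. Cldn4 averaged 121 CPM in high-load kidneys and 21.7 CPM in controls. Those most like Krt19 were Syt8, Sprr1a, a cornified envelope protein, the mucin Muc4, Cxcl13 and Gm13398, at 0.35 to 0.45. Those most like Krt20 were AC132253.9, Igfbp2, Sprr1a, Cnn1 and Akr1b8, at 0.34 to 0.38, and those most like Krt23 were Srpk3, Tmod2, Aff3, Xk and Vsig2, at 0.18 to 0.23. These are descriptions over 6 kidneys that share depth and group.

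The marker lists of cell types that carry keratins gave the following levels. Of 20 urothelium genes, 19 were tested, all 19 with a log2 fold change above 0, and 0 passed an adjusted p of 0.05. Their summed level was 594, 76.4 and 106 CPM in high-load 1 to 3, against 74 to 143 CPM in the controls. Krt5 and Krt14 were at 0 counts in high-load 2 and 3, Krt15 and Gsdmc2 in high-load 2, and Upk3a in high-load 3. Without high-load 1, 13 of the 19 were lower and 3 higher at an unadjusted p under 0.05, beside 8.09% of all genes lower and 10.6% higher. The 3 higher were Gata3 and Elf3, transcription factors that other epithelia also express, and Ivl, a cornified envelope protein. Elf3 was at 84.4, 30.3 and 51.9 CPM in high-load 1 to 3, against 19.9 to 26.0 CPM in the controls.

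Principal cells of the collecting duct, a normal site of Krt7, Krt8, Krt18 and Krt19, gave uneven values. The summed level of 10 principal cell genes was 818, 557 and 595 CPM in high-load 1 to 3, against 739, 1170 and 600 CPM in controls 1 to 3, and 5 of the 10 had a log2 fold change above 0. The sodium channel subunits Scnn1b and Scnn1g were higher and the water channel Aqp4 lower at an unadjusted p under 0.05. These were 2 higher and 1 lower of the 10, near the 14% and 10.2% of all genes, and 0 passed an adjusted p of 0.05. Scnn1b was at 78.9, 66.4 and 83.8 CPM in high-load 1 to 3, against 49.6, 61.1 and 47.9 CPM in controls 1 to 3 (log2 fold change 0.53, SE 0.13, edgeR adjusted p 0.113). Of 8 intercalated cell genes, 4 were higher and 1 lower at an unadjusted p under 0.05, beside 14% and 10.2% of all genes. Of the 8, 0 passed an adjusted p of 0.05. They had a summed level of 363 to 483 CPM in high-load kidneys and 385 to 432 CPM in controls. The proton pump subunit Atp6v0d2 averaged 83.8 ± 11.5 CPM in high-load kidneys and 32.1 ± 4.94 CPM in controls (SD, n = 3 each; edgeR adjusted p 0.0696), and Foxi1 and Atp6v1g3 came next by p.

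Genes of injured tubule cells, the state in which tubules are known to gain simple keratins, were also higher. All 12 of the list had a log2 fold change above 0, with a median of 1.42, and 11 were higher at an unadjusted p under 0.05, beside 14% of all genes. Of the 12, 0 passed an adjusted p of 0.05, and 6 passed 0.1, beside 2.59% of all genes. Their summed level was 12700, 6210 and 11800 CPM in high-load 1 to 3, against 4330, 3800 and 3000 CPM in controls 1 to 3, most of it the secreted phosphoprotein Spp1 and the chaperone Clu. Without high-load 1 the median was 1.23. The 3 with the smallest p were the cell cycle inhibitor Cdkn1a, Clu and the repair factor Sox9. Sox9 was at 28.5, 10.7 and 32.2 CPM in high-load 1 to 3, against 4.77, 2.92 and 3.05 CPM in controls 1 to 3. Of 6 macrophage markers, 5 were higher at an unadjusted p under 0.05, beside 14% of all genes, led by C1qa, C1qb and Adgre1, and 0 passed an adjusted p of 0.05. Csf1r had a log2 fold change of -0.046. The 6 had a summed level of 1230, 625 and 864 CPM in high-load 1 to 3, against 376 to 487 CPM in the controls. The part of injured tubule cells, of urothelium and of macrophages in the keratin levels was not tested.

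Other cell types gave the following values. Summed levels in high-load 1 to 3 were 4750, 5740 and 4810 CPM for 6 thick ascending limb genes, against 6370 to 8970 CPM in controls. All 3 high-load kidneys lay below all controls in this sum. For 4 podocyte genes they were 250, 600 and 611 CPM in high-load 1 to 3, against 491 to 630 CPM in controls, and for 5 endothelial genes 238, 403 and 270 CPM in high-load 1 to 3, against 334 to 425 CPM in controls. Parietal epithelium and mesothelium, which also carry Krt8 and Krt18, were at 288, 178 and 187 CPM in high-load 1 to 3, against 179 to 230 CPM in controls. Genes lowest in p for the thick ascending limb were Cldn10 and Slc12a1, with negative log2 fold changes, and Cldn16, with a positive one. For podocytes they were Nphs1 and Podxl and for endothelium Flt1, Emcn and Kdr, all negative. For parietal epithelium and mesothelium they were Ncam1 and Cldn1, positive, and Wt1, negative. For the proximal tubule they were Aqp1, Hnf4a and Slc7a13, all negative. The value of Slc7a13 rested on control 2, with 1943 counts against 10 and 24 in controls 1 and 3. High-load 1 to 3 had 3, 10 and 10 counts of it, and the groups overlapped. Fibroblast genes, led by Col1a2, Col1a1 and Acta2, were at 741, 890 and 568 CPM in high-load 1 to 3, against 331 to 571 CPM in controls. Of the 6, 3 were higher and 0 lower at an unadjusted p under 0.05, beside 14% and 10.2% of all genes. An adjusted p of 0.05 was passed by 0.

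Other keratins gave other values. Of 53 keratin genes in the table, 12 were tested, the 6 simple keratins and 6 others, and 24 of the 47 others had 0 counts in all 6 kidneys. Krt80, a type II keratin, was at 15.8, 13.6 and 14.4 CPM in high-load 1 to 3, against 16.0, 10.1 and 15.4 CPM in controls 1 to 3, with overlapping groups. Krt10, a type I keratin of the epidermis, was lower in all 3 high-load kidneys, at 2.13, 4.40 and 3.73 CPM, than in controls 1 to 3, at 5.05, 5.41 and 5.28 CPM (log2 fold change -0.62, SE 0.29, edgeR adjusted p 0.241). Krt222 was at 1.41 to 2.55 CPM in high-load kidneys and 1.09 to 1.74 CPM in controls. Krt5, Krt14 and Krt15 completed the 6 and were high in high-load 1 alone. Of 17 epidermal keratins listed, 5 were tested, and 0 passed an unadjusted p of 0.05.

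Genes that anchor keratin filaments showed mixed values. Of 18 genes for desmosomes and keratin linkers, 16 were tested, with a median log2 fold change of 0.19, 5 higher and 3 lower at an unadjusted p under 0.05, beside 14% and 10.2% of all genes, and 0 past an adjusted p of 0.05. Dsc2, a desmosomal cadherin, was at 9.55, 6.35 and 12.2 CPM in high-load 1 to 3, against 3.77, 3.28 and 3.16 CPM in controls 1 to 3 (edgeR adjusted p 0.0946). Evpl, envoplakin, was at 19.4, 22.6 and 18.6 CPM in high-load 1 to 3, against 31.7, 33.8 and 29.1 CPM in controls 1 to 3 (edgeR adjusted p 0.0936), and Dst, dystonin, was lower with an adjusted p of 0.130. Dsp, desmoplakin, which ties keratin to the desmosome, had a log2 fold change of 0.76 (SE 0.23, edgeR adjusted p 0.137). Of 11 tested genes for other intermediate filaments, 6 were higher and 0 lower at an unadjusted p under 0.05, beside 14% and 10.2% of all genes, with a median log2 fold change of 0.44 and 0 past an adjusted p of 0.05. Without high-load 1 the median was 0.23 and 4 were higher. The 3 with the smallest p were the neurofilament genes Nefl and Nefm and the nuclear lamin gene Lmnb1, and Nefl was at 3.31, 3.09 and 9.35 CPM in high-load 1 to 3, against 1.05, 0.608 and 0.381 CPM in controls 1 to 3 (edgeR adjusted p 0.0967).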

How the data were processed

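RNA-seq of 6 whole mouse kidneys was used. Per the labels' protocols, TRIzol RNA went into Illumina TruSeq libraries, read as 150 bp pairs on a DNBSEQ instrument. The authors deposited a table of raw counts per Ensembl gene. Tools named in the submitters' processing notes are featureCounts 2.0.1, HISAT2 2.2.1, fastp 0.23.2, SAMtools 1.11 and edgeR, with the build mm10. Which annotation was counted, whether strand was used and what was done with multi-mapping reads is not given, so keratins with near-identical copies have uncertain counts.

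Groups came from sample titles. Each library has its own code and counted as a replicate. Libraries of a group differed well beyond sampling noise (chi-square of 21.4 to 100 per gene's degree of freedom), which cannot show that they are separate animals. Where codes are not separate animals, p-values measure only the spread between these samples. No batch is named. Of 32285 gene IDs, 32235 matched GENCODE M21, which gave positions and the length of the principal transcript used for CPM per kb.

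Genes passing filterByExpr (minimum count 10) were scaled by TMM and tested with a robust quasi-likelihood fit on group in edgeR 4.0.16 (R 4.3.3), two-sided, with p-values adjusted by Benjamini-Hochberg over all 15955 and a threshold of 0.05. SE came from the F statistic. Log2 profiles used a prior count of 2. DESeq2 1.42.0 and limma 3.58.1 (voom) were alternatives. The count tests were tested on simulated data. Intervals of ratios are 95% exact binomial (Clopper-Pearson) and cover counting error only. The members and gene lists were chosen with earlier results of these data known. Named were the 6 keratins, Upk1b and Upk3a, tested keratins, in each list the 3 genes lowest in p, and the 5 genes nearest each keratin; Spp1, Dsp, Kap, Csf1r, Upk3bl and the urothelial genes at 0 were named after their values were seen, and the sum without Kap and the other lengths for Krt7 were chosen after seeing the data. Some genes that this rule picks are not reported here.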

Additional observations from a re-analysis of the deposited data

How the results depend on the processing

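Krt7, Krt8, Krt18 and Krt19 kept a positive log2 fold change under every alternative run, and Krt20 did so too. DESeq2 with its own filtering called 4 of the 6 keratins higher, with log2 fold changes of 1.10 for Krt7 (adjusted p 0.00624), 1.05 for Krt8 (0.0190), 2.22 for Krt18 (4.37e-05) and 2.82 for Krt19 (0.0433), beside 6.67% of its 16091 genes with an adjusted p. In leave-one-out fits the number of keratins called higher ranged from 0 to 3. It was 3 without high-load 2 (Krt7 at 1.38, Krt8 at 1.35 and Krt18 at 2.60), where 544 of all genes were called higher and 263 lower. With all 6 kidneys 1 keratin passed an adjusted p under 0.1 as higher, beside 2.59% of all genes. At an unadjusted p the number ranged from 2, without control 3, to 5, without high-load 2 or control 1. Among these fits the share of all genes was computed only without high-load 1, where 4 keratins and 10.6% of all genes were higher. Log2 fold changes with a library left out ranged from 0.79 to 1.38 for Krt7, 0.65 to 1.35 for Krt8, 1.61 to 2.60 for Krt18, 1.38 to 3.32 for Krt19, 0.63 to 2.35 for Krt20 and -0.40 to 0.79 for Krt23, which reversed without high-load 1. The Krt8 to Krt18 difference ranged from -1.22 to -0.93. Counts over all genes moved more: 3 higher and 0 lower became 46 and 4 with no filter on low counts, 1074 and 624 with DESeq2, 0 higher with limma-voom, 414 and 97 at an adjusted p under 0.1, and 0 to 544 higher and 0 to 263 lower with a library left out; limma-voom called 0 lower. The cause was not tested.

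Deviations from the group means of kidneys with the same replicate number correlated at 0.124, -0.182 and 0.0492, and high-load 2 correlated best with control 3. With 3 kidneys a group these correlations constrain each other, so they cannot exclude a pairing. With the replicate block 1 gene was called higher and 0 keratins. Upk1b and Upk3a reversed to -1.20 and -1.68 with the replicate block, -2.20 and -2.81 with limma-voom and -5.70 and -5.40 without high-load 1, where at most 4 counts set the value; with a library left out they reached 2.37 and 1.73. The distance to the uroplakins fell without high-load 3, to 1.81 for Krt19 and 1.87 to 2.07 for the other 5. It moved most with a profile of all tested urothelium genes that are not keratins. There it was 1.28 for Krt7, 1.21 for Krt8, 1.44 for Krt18, 1.33 for Krt19, 1.14 for Krt20 and 0.962 for Krt23. A gene with no variation was at 2.84 in the main setting. Its distance changes with the setting and was not computed for the prior count of 0.5 or the profile of all urothelium genes. These values therefore cannot be read against 2.84. Of the marker lists, taken without high-load 1 as an alternative chosen after seeing the data, the urothelium median moved to -2.25, the epidermal keratin median to -6.61 and the median of other intermediate filaments to 0.23. The epidermal value is that of Krt15, with at most 1 count in high-load 2 and 3, and is no bound. With 3 kidneys a group, and at 13 to 63 counts for Krt23, small differences were not detectable at this depth.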

Other observations

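Upk3bl, the uroplakin 3b-like gene, which did not pass the filter on low counts, had 38, 7 and 9 counts in high-load 1 to 3, against 3, 0 and 2 counts in controls 1 to 3. Unlike Upk1b and Upk3a it was higher in all 3 high-load kidneys than in every control, a pattern that 17.1% of all genes tested had. It was named after its values were seen, and it was not tested.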
